A study of Mus musculus with 12 samples.

Results

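Genes that encode histone-modifying enzymes, chromatin remodellers and bromodomain readers were followed in blood neutrophils of female mice. They were taken as the protein-coding mouse genes whose symbols start with Kmt, Setd, Kat, Kdm, Hdac, Smarc, Chd or Brd followed by the number or letter and number of the family, without the Katn genes. This gave 71 of the 9374 genes in the table, of which 8691 are protein-coding: 8 Kmt, 8 Setd, 7 Kat, 16 Kdm, 6 Hdac, 10 Smarc, 8 Chd and 8 Brd genes. RefSeq lists 87 protein-coding genes with such symbols, and the others were not analysed here. Brd3os met the naming rule and is listed as protein-coding, but its name marks it as the gene opposite Brd3 and not as a bromodomain gene. RNA was sequenced from 4 groups of 3 libraries: KO-LPS and KO-Saline from Hmgb1ΔMye mice, and WT-LPS and WT-Saline from wild-type (WT) mice. LPS groups came from mice given lipopolysaccharide, a bacterial outer membrane component, at 0.5 mg/kg for 16 hours before neutrophils were isolated, and saline groups came from mice given saline. ΔMye is a name used for deletion in myeloid cells. The sources used here do not give the Cre driver, the age of the mice, or whether each library came from its own mouse.

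Chromatin enzymes act on the histones around which DNA is wound. Writers add acetyl or methyl groups to histone tails, erasers remove them, bromodomain proteins bind acetylated tails, and remodellers use ATP to move or evict nucleosomes. In myeloid cells exposed to LPS these enzymes take part in switching inflammatory genes on and off, and Hmgb1 itself encodes an abundant chromatin protein that bends DNA.

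Hmgb1 reads were 6, 30 and 16 in KO-LPS and 14, 10 and 25 in KO-Saline, against 14, 15 and 34 in WT-LPS and 8, 17 and 12 in WT-Saline. Reads over the whole gene may include exons outside a deletion and reads of processed copies, so these values do not check the genotype, and the Hmgb1ΔMye libraries are called KO-labelled here. Depth ran from 399702 to 526757 reads per library, and at a floor of 3 reads a gene with no read in a library could still lie at up to 5.58 to 8.0 CPM, its reads scaled to the depth of the library. The summed level of 7 measured genes out of 11 listed for immature neutrophils and specific granules was 3145 CPM in KO-LPS replicate 1, 15554 and 14869 CPM in KO-LPS replicates 2 and 3, and 2243 to 2670 CPM in KO-Saline. It was 11610 to 16756 CPM in WT-LPS, against 1978 to 2801 CPM in WT-Saline. KO-LPS replicate 1 thus lay near the saline libraries for these genes. Elane, Mpo, Ctsg and Top2a, the other 4 of the 11, were not analysed here. Markers of other cells were at lower levels: 3 of 6 platelet genes summed to 217 to 496 CPM in KO-LPS and 651 to 837 CPM in KO-Saline, against 161 to 255 CPM in WT-LPS and 523 to 779 CPM in WT-Saline, and 4 of 6 dendritic cell genes summed to at most 160 CPM in KO-LPS, 195 CPM in KO-Saline, 56.9 CPM in WT-LPS and 334 CPM in WT-Saline. Of the 6 B cell genes only Cd79a was measured, at 34.7 to 104 CPM in KO-LPS and 7.3 to 28.9 CPM in KO-Saline, against 101 to 134 CPM in WT-LPS and 9.68 to 29.6 CPM in WT-Saline. The 5 measured of 10 monocyte and macrophage genes summed to 432 to 646 CPM in KO-LPS and 441 to 494 CPM in KO-Saline, against 593 to 683 CPM in WT-LPS and 423 to 545 CPM in WT-Saline. With LPS, Ly6c2 rose and Apoe and Csf1r fell among them. The measured T and NK, erythroid and eosinophil genes summed to at most 216, 37.9 and 23.6 CPM in a library. All 12 mature neutrophil markers were measured, and they summed to 21820 to 22787 CPM in KO-LPS and 19392 to 19754 CPM in KO-Saline, against 19501 to 22348 CPM in WT-LPS and 13949 to 18819 CPM in WT-Saline, with 8 that rose with LPS and 1, Csf3r, that fell. The part of these shifts in the results on chromatin genes was not tested.

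The 71 genes held 0.780% to 0.957% of the reads in a library. Their median level was 27.83 reads per library, against 11.33 for all genes, and 47 of them had a mean of at least 10 reads. Per kilobase of exon, Kdm6b (JMJD3), which removes the repressive methyl mark that Polycomb places on histone H3, had the highest level, at 111 ± 32.8 CPM per kb (SD, n = 12 libraries). Kmt2e (MLL5), a SET and PHD domain protein of the MLL family, followed at 85.8 ± 21.4, and Kdm7a, another histone demethylase, at 65.6 ± 10.8 CPM per kb. Exons of Kdm6b, Kmt2e and Kdm7a overlap exons on the other strand, so their levels are uncertain. Opposite Kdm7a lies 4930599N23Rik, with 766.5 reads per library, against 295.7 for Kdm7a. Then came Kmt2d at 40.2 ± 7.22, Setdb1 at 35.8 ± 7.95, Brd2 at 35.7 ± 5.10 and Setd6 at 33.8 ± 11.2 CPM per kb, whose ranges over libraries overlapped. Kmt2d methylates histone H3 at enhancers, Setdb1 methylates histone H3 in silenced chromatin, and Brd2 is a bromodomain protein of the BET family. Low levels were found for some core subunits of known complexes: Smarcb1 had 2.5, Smarcc1 1.7 and Hdac3 3.2 reads per library. Per kilobase these 3 were at 0.7, 0.497 and 1.76 CPM per kb. Exons of Smarcc1 overlap those of Dhx30 on the other strand, which had 54.5 reads per library, so the level of Smarcc1 is uncertain. Other subunits were higher, with Smarcc2, Chd4, Hdac1 and Smarca2 at 18.5, 16.6, 16.1 and 7.71 CPM per kb. For none of the 24 genes under 10 reads did the 95% interval of the averaged LPS comparison lie within 2-fold either way.

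**Figure D1:**
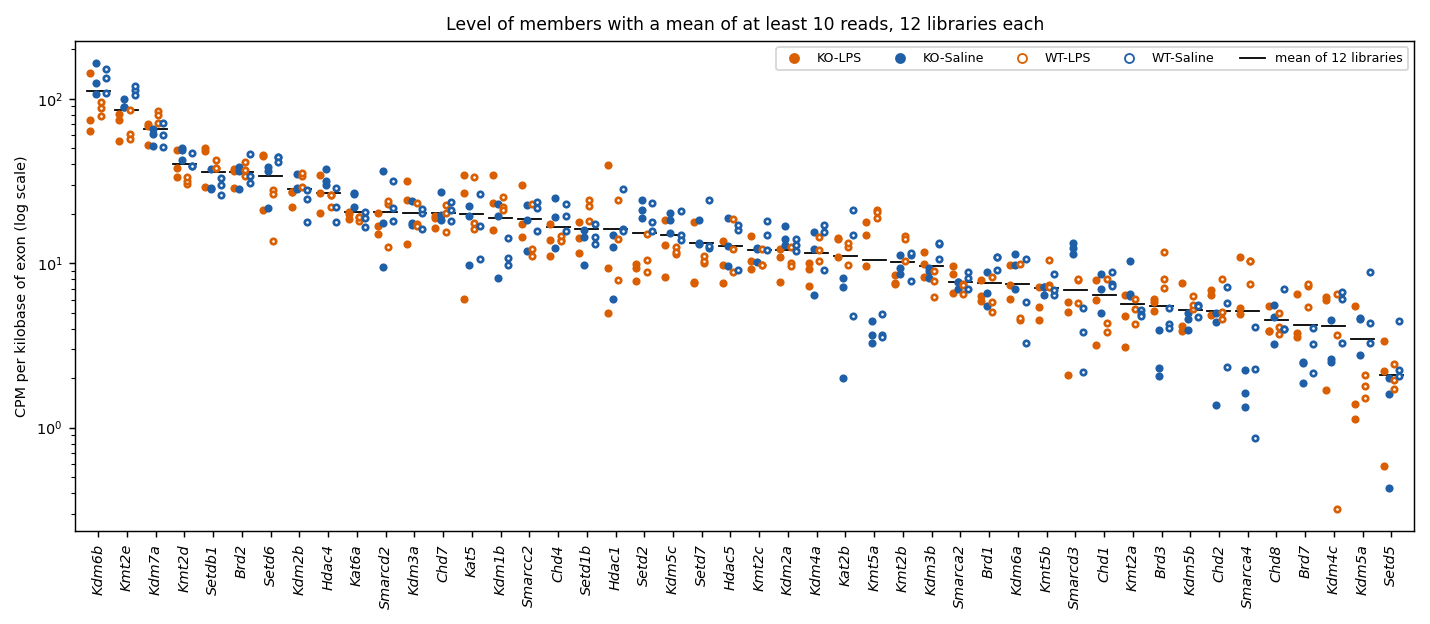
Level of 46 of the 47 genes with a mean of at least 10 reads, in CPM per kilobase of exon on a log axis, with 1 point per library (orange LPS, blue saline, filled KO-labelled, open WT) and a line at the mean of 12 libraries. Kdm6b, Kmt2e and Kdm7a stand at the upper end, with means of 111, 85.8 and 65.6 CPM per kb, and the 2 colours separate for Kmt5a and Smarca4.

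Exons of 26 of the 71 genes (36.6%) overlapped exons on the opposite strand, against 36.8% of all matched genes, and the strand setting of the counting is not given in the sources used here. For 13 of the 26 an overlapping partner was measured, and in 7 of these the partner had more reads. Over the whole table, 167 of 229 long non-coding genes (72.9%) lying opposite a measured protein-coding gene had more reads than that gene. Whether reads were counted on the opposite strand, which would put the values of all genes in doubt, was not tested.

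The first question was how the levels of these genes stood after LPS. In bulk libraries fewer cells of a type and less RNA per cell cannot be told apart, so rises and falls cover both. In a fit of LPS against saline averaged over both genotypes, 10 of the 71 genes (14.1%) were called, against 16.9% of all 9374 genes, of which 9.86% rose and 7.03% fell. Among genes with a mean of at least 10 reads the shares were 17.0% of the 47 chromatin genes and 25.9% of all. Kmt5a, Smarca4, Chd6, Brd3 and Kdm1b rose, and Setd2, Kmt2e, Kat8, Kdm6b and Kdm5a fell. The median log2 change was -0.02 over the 71 genes and 0.09 over all genes, with 35 positive and 36 negative. Calls needed a limma p under 0.05 after Benjamini-Hochberg adjustment over the 9374 genes, and ± after a log2 change is its standard error. The count was 15 without KO-LPS replicate 1 (23.8% of all genes), 4 without WT-LPS replicate 1 (13.9%), 5 without KO-LPS replicate 3 (12.7%), and 6 without WT-Saline replicate 1 (14.5%), WT-LPS replicate 2 (14.6%) or KO-LPS replicate 2 (12.4%). Without the mean-variance trend the count was 6 (10.1% of all genes): Kmt2e, Kat8, Kdm6b, Kdm5a and Kdm1b were lost (limma adjusted p = 0.0595 to 0.183) and Brd7 was called. Under quantile normalization Brd3 and Chd6 were lost (limma adjusted p = 0.0598 and 0.0503).

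Within WT libraries 3 of the 71 genes (4.23%) were called, against 11.7% of all genes, 6.72% higher and 4.96% lower: Kmt5a and Smarca4 rose and Kmt2e fell. Within KO-labelled libraries 2 (2.82%) were called, against 3.35% of all genes, 1.99% higher and 1.35% lower: Kmt5a rose and Setd2 fell. Groups of LPS and saline libraries did not overlap for 42.3% of the 71 genes in WT, 15 higher and 15 lower with LPS, where the share of all genes was 30.8%, with 16.5% higher and 14.3% lower. In KO-labelled libraries they did not overlap for 19.7%, 7 higher and 7 lower, where the share of all genes was 17.6%, with 10.8% higher and 6.87% lower. Among genes with a mean of at least 10 reads these shares were 42.6% of the chromatin genes and 40.6% of all genes in WT, and 25.5% and 19.5% in KO-labelled libraries. Over all 6 LPS and 6 saline libraries this held for 5 genes (7.04%), against 4.93% of all genes, 3.36% higher and 1.57% lower: Kmt5a, Smarca4 and Chd6 were higher and Kmt2e and Setd2 lower in every LPS library. The WT count was 1 without WT-Saline replicate 2 (8.27% of all genes) and 7 without KO-LPS replicate 1 (15.2%), which enters the shared estimate of the spread. It was 1 without the mean-variance trend (3.87%) and 7 in a fit of the WT groups alone (15.3%). The KO-labelled count was 7 without KO-LPS replicate 1 (11.5% of all genes). It was 0 without KO-Saline replicate 2 (1.38%) or 3 (1.15%) or KO-LPS replicate 2 (0.341%) or 3 (0.501%), without the mean-variance trend (0.171%), and in a fit of the KO-labelled groups alone (0.875%).

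**Figure D2:**
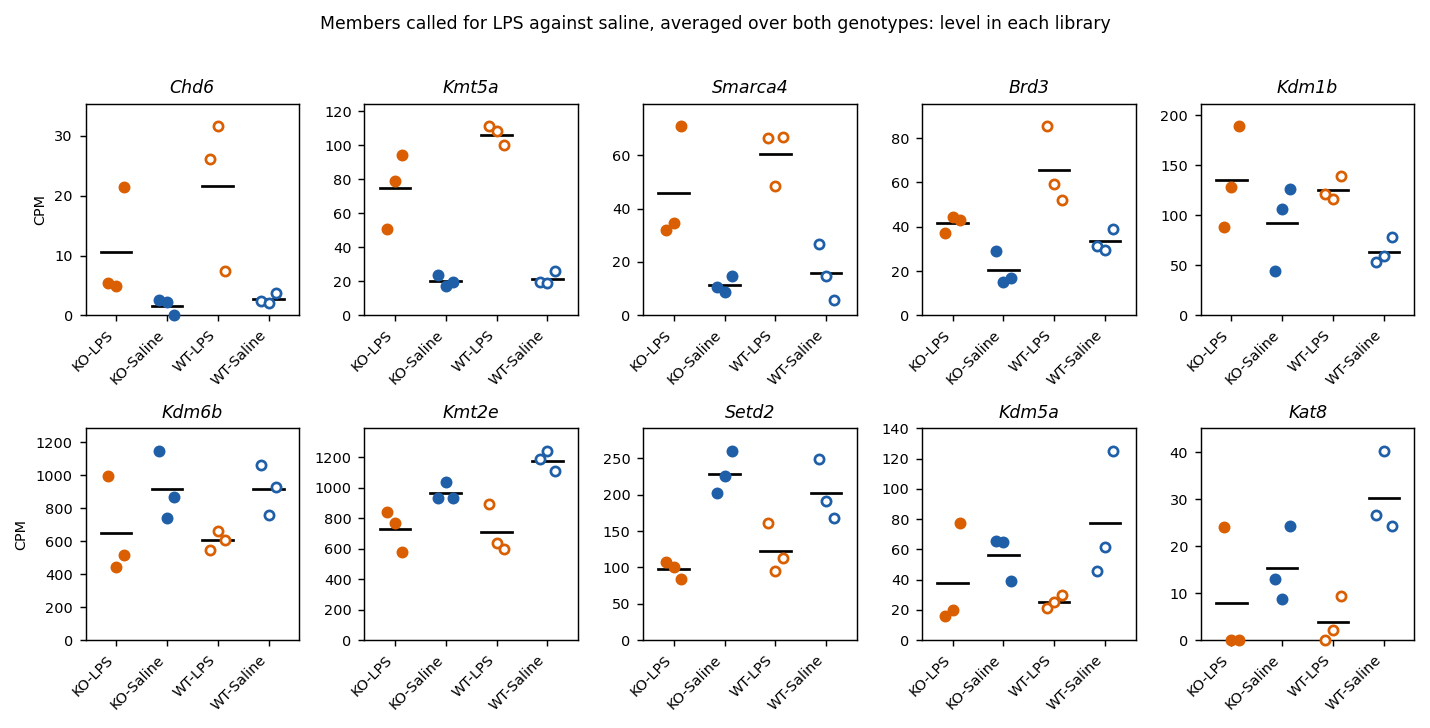
Level in CPM, from 0, of the 10 called genes in each library, with 1 panel per gene, 3 points per group and a line at the group mean. Kmt5a, Smarca4 and Chd6 are higher in every LPS library than in any saline library, Kmt2e and Setd2 lower, and for Kdm6b, Kat8, Kdm5a, Brd3 and Kdm1b single libraries overlap.

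Kmt5a (NCBI Gene 67956, chr5:124439930-124462308, plus strand, mm10) encodes the enzyme that adds 1 methyl group to histone H4 and is needed for chromosome compaction in dividing cells. It had 19, 32 and 44 reads in KO-LPS, against 9, 8 and 8 in KO-Saline, and 47, 51 and 54 reads in WT-LPS, against 8, 9 and 14 in WT-Saline. Every LPS library was above every saline library, and KO-LPS replicate 1 was the lowest of the LPS libraries. Its level was 74.7 ± 22.1 CPM in KO-LPS and 20.1 ± 3.19 CPM in KO-Saline (SD, n = 3 each, limma adjusted p = 0.0178). It was 106 ± 5.61 CPM in WT-LPS and 21.5 ± 3.98 CPM in WT-Saline (SD, n = 3 each, limma adjusted p = 0.000655). The averaged log2 change was 2.03 ± 0.31 (limma adjusted p = 2.22e-05), a fold of 4.09 with a 95% interval of 2.64 to 6.33. The KO-labelled call was lost without KO-Saline replicate 2 or 3 (limma adjusted p = 0.0692 and 0.0556) and without KO-LPS replicate 2 or 3 (limma adjusted p = 0.136 and 0.165). The WT and the averaged call held in every alternative run.

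Smarca4 (BRG1; NCBI Gene 20586, chr9:21616169-21704230, plus strand) encodes the ATPase that drives the SWI/SNF remodelling complex. Its reads were 12, 14 and 33 in KO-LPS, against 4, 4 and 6 in KO-Saline, and 28, 23 and 36 in WT-LPS, against 11, 7 and 3 in WT-Saline. The lowest LPS library, KO-LPS replicate 1 at 32.0 CPM, was just above the highest saline library, WT-Saline replicate 1 at 26.6 CPM. The averaged log2 change was 1.98 ± 0.44 (limma adjusted p = 0.00173), with 1.85 ± 0.62 in KO-labelled (limma adjusted p = 0.101) and 2.10 ± 0.62 in WT libraries (limma adjusted p = 0.0231). The WT call was lost without WT-Saline replicate 2 or 3 (limma adjusted p = 0.0505 and 0.138) or WT-LPS replicate 1 or 3 (limma adjusted p = 0.0931 and 0.0971), while the averaged call held in every alternative run.

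Setd2 (NCBI Gene 235626, chr9:110532597-110618633, plus strand) encodes the enzyme that places the third methyl group on histone H3 along transcribed genes. It had 40, 41 and 39 reads in KO-LPS, against 77, 104 and 107 in KO-Saline, and 68, 45 and 61 in WT-LPS, against 103, 91 and 90 in WT-Saline. All 6 LPS libraries were lower than all 6 saline libraries, with the gap smallest between WT-LPS replicate 1 at 161 CPM and WT-Saline replicate 3 at 168 CPM. Setd2 fell by 0.98 ± 0.20 on the log2 scale in the averaged comparison (limma adjusted p = 0.000747), a fold of 0.507 with a 95% interval of 0.382 to 0.673. In KO-labelled libraries the log2 change was -1.23 ± 0.28 (limma adjusted p = 0.012), and in WT libraries -0.73 ± 0.28 (limma adjusted p = 0.0955). The KO-labelled call was lost without KO-Saline replicate 2 or 3 (limma adjusted p = 0.0564 and 0.0756) and without KO-LPS replicate 2 or 3 (limma adjusted p = 0.071 and 0.0966). The averaged call held in every alternative run.

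These 3 genes kept their averaged call throughout and have a promoter entry in RefSeq (GRCm38.p6), so the letters around their starts are printed, from 250 bases before to 50 bases after the start, 5′ to 3′ on the gene's strand. The Kmt5a window is chr5:124439680-124439979, the Smarca4 window chr9:21615919-21616218 and the Setd2 window chr9:110532347-110532646. Capitals mark the GC box letters GGGCGG and the CCAAT box letters CCAAT, read on both strands, where neighbouring GC boxes can overlap.
Kmt5a: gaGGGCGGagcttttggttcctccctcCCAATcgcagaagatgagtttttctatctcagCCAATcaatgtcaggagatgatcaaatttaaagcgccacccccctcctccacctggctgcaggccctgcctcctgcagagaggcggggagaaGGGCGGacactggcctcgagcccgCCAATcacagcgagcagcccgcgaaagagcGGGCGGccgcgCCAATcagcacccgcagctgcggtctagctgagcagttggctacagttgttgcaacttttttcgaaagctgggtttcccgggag
Smarca4: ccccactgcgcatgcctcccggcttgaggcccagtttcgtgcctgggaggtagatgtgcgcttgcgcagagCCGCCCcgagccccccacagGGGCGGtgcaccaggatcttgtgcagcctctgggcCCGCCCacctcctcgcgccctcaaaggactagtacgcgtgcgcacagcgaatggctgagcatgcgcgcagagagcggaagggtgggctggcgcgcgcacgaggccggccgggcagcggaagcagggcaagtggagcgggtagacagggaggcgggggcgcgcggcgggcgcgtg
Setd2: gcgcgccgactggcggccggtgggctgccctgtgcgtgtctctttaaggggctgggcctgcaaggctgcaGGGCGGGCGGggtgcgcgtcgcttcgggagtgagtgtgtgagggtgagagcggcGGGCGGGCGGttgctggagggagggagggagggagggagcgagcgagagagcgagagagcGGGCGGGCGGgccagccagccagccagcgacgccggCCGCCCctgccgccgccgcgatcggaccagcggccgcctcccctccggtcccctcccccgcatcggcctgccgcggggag
The Kmt5a window held 3 GC boxes and 4 CCAAT boxes, Smarca4 held 3 GC boxes, and Setd2 held 7 GC boxes, of which 6 lay in overlapping pairs. Of the 71 genes 53 had a promoter entry, and 40 of these (75.5%) held a GC box, against 63.0% of 7484 promoters of all genes. CCAAT stood in 34.0% of the 53, against 37.6% of all promoters. The interferon regulatory factor type letters GAAANNGAA stood in 3.77%, against 7.4% of all, the AP-1 letters TGANTCA in 9.43%, against 5.28%, the ETS letters CCGGAAGT in 5.66%, against 8.86%, the PU.1 letters GAGGAAGT in 1.89%, against 3.25%, and the E-box letters CACGTG in 5.66%, against 10.1%. The median number of CG dinucleotides was 27 in the 53 promoters and 21 in all. These shares describe the letters and were not tested.

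Roles were assigned by family name and not by shown activity of each gene. Kmt, Setd and Kat genes were counted as writers, Kdm and Hdac as erasers, Smarc and Chd as remodellers and Brd as readers. Among genes counted as writers, 1 of 23 rose and 3 fell in the averaged comparison (17.4% called, against 16.9% of all genes). Besides Kmt5a and Setd2, Kmt2e (NCBI Gene 69188, chr5:23434441-23504235, plus strand) had 314, 313 and 269 reads in KO-LPS, against 355, 477 and 385 in KO-Saline, and 377, 301 and 321 in WT-LPS, against 491, 587 and 595 in WT-Saline. In CPM the LPS libraries ran up to 894 and the saline libraries started at 932, so the groups did not overlap. Kmt2e fell by 0.59 ± 0.15 on the log2 scale (limma adjusted p = 0.00524), with a change of -0.42 ± 0.21 in KO-labelled (limma adjusted p = 0.298) and -0.76 ± 0.21 in WT libraries (limma adjusted p = 0.0156). Its exons overlap those of Srpk2, on the other strand, by 972 bases, and Srpk2 had 404.8 reads per library, so the values of this gene are uncertain. The WT call was lost without WT-Saline replicate 1 or 2 (limma adjusted p = 0.0528 and 0.0656) or WT-LPS replicate 2 or 3 (limma adjusted p = 0.0754 and 0.104).

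Kat8 (MOF; NCBI Gene 67773, chr7:127912516-127925837, plus strand), which acetylates histone H4, had 9, 0 and 0 reads in KO-LPS, against 5, 4 and 10 in KO-Saline, and 0, 1 and 5 in WT-LPS, against 11, 19 and 13 in WT-Saline. Its WT groups were apart, while KO-LPS replicate 1 was within the saline range. Pooled, 15 reads in LPS libraries stood against 62 in saline libraries, so the ratio was 0.242 (95% counting interval 0.128 to 0.43). The averaged log2 change was -2.72 ± 0.78 (limma adjusted p = 0.0154), and the call was lost without WT-LPS replicate 1 (limma adjusted p = 0.0512) or KO-LPS replicate 3 (limma adjusted p = 0.0515). The log2 change ran from -3.46 without KO-LPS replicate 1 to -1.69 with a prior count of 2 reads. Its exons overlap Prss8 on the other strand, so it too is uncertain.

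The 8 Kmt genes together summed to 2382, 2033 and 1855 CPM in KO-LPS, against 2496, 2452 and 2566 CPM in KO-Saline, and to 2162, 2022 and 1894 CPM in WT-LPS, against 2798, 2587 and 2505 CPM in WT-Saline. The Kmt sums of LPS and saline libraries did not overlap, while the sums of each other family and of all 71 genes did. Most of the Kmt sum is Kmt2e and Kmt2d. Kmt2e, whose values are uncertain, averaged 729 CPM in KO-LPS, against 968 CPM in KO-Saline. It averaged 708 CPM in WT-LPS, against 1179 CPM in WT-Saline. Of the 8 genes 1 rose, 1 fell and 6 were not called (25.0% called, against 16.9% of all genes). Kmt2d had a log2 change of -0.32 ± 0.14 (limma adjusted p = 0.129), Kmt2b 0.04 ± 0.22 and Setdb1 0.41 ± 0.18 (limma adjusted p = 0.126). Without KO-LPS replicate 1, Kmt2d was called at -0.39 ± 0.13 (limma adjusted p = 0.0178) and Setdb1 at 0.53 ± 0.16 (limma adjusted p = 0.0149). Setd1b, a subunit of the COMPASS methyltransferase, had a log2 change of 0.32 ± 0.19 (limma adjusted p = 0.275). The abundant acetyltransferases Kat6a and Kat5 (TIP60) had log2 changes of -0.17 ± 0.17 and 0.24 ± 0.36, neither called.

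**Figure D3:**
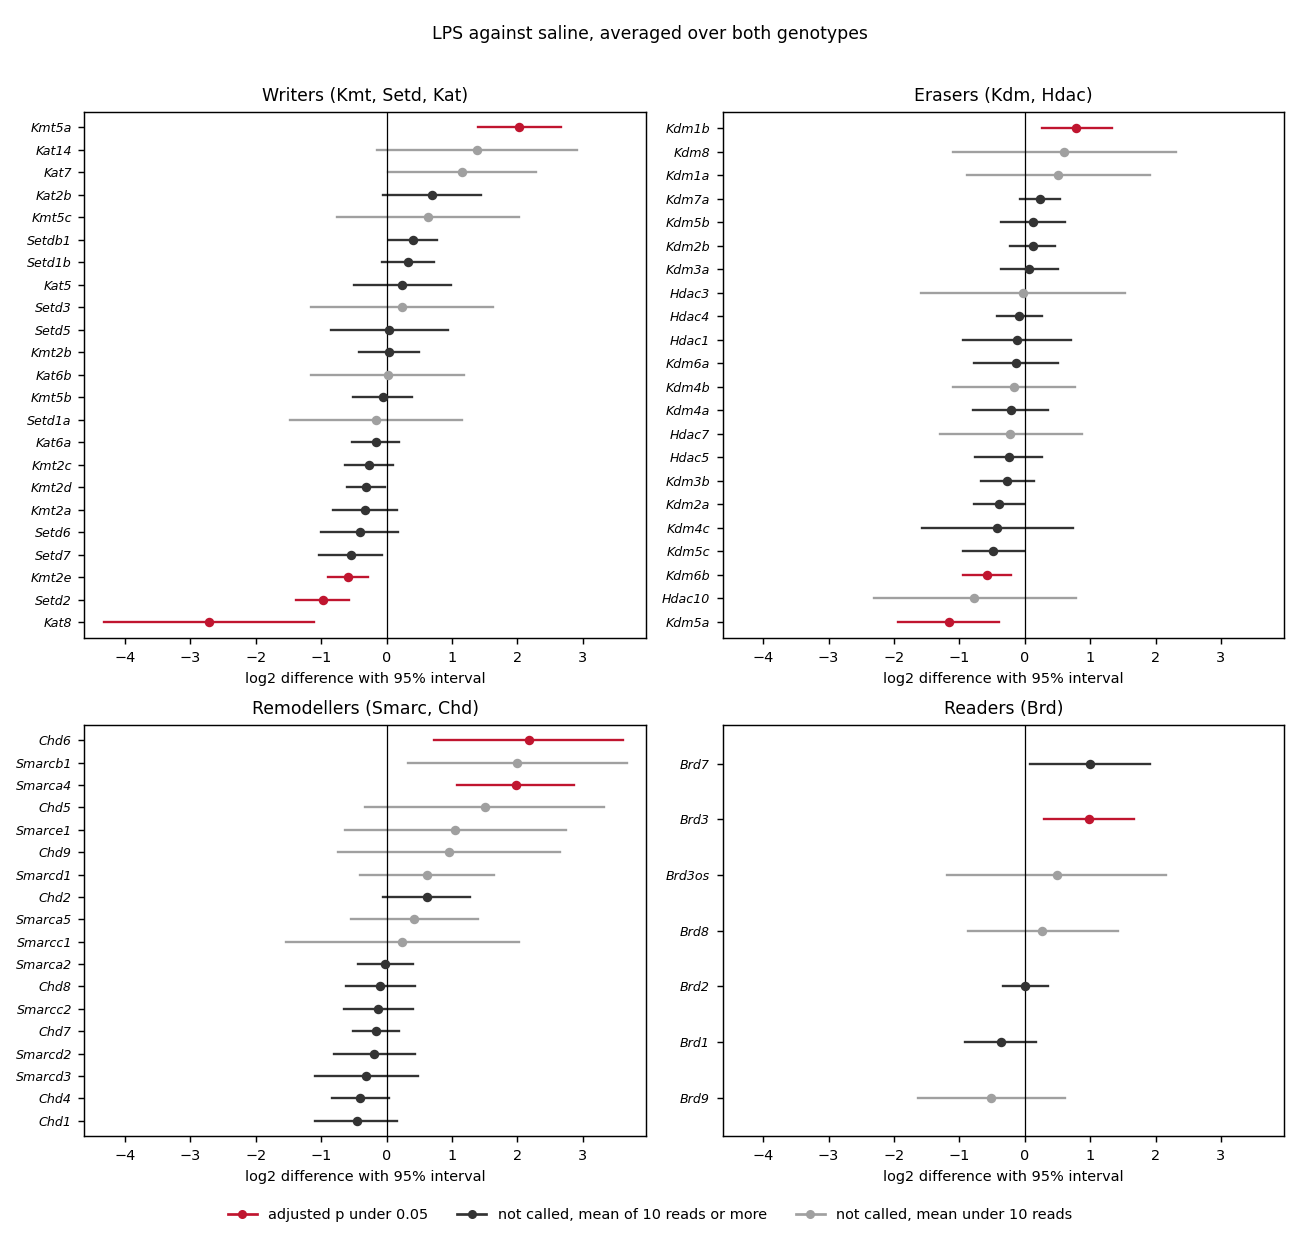
Averaged log2 difference of LPS against saline for 70 of the 71 genes by role, with 95% intervals. Red marks the 10 called genes, from Kat8 at -2.72 to Chd6 at 2.17, black the others with a mean of at least 10 reads and grey those with fewer, whose intervals are wider.

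Among erasers, 1 of 22 genes rose and 2 fell, all of them Kdm genes (13.6% called, against 16.9% of all genes). Kdm6b (NCBI Gene 216850, chr11:69398508-69413675, minus strand) had 373, 179 and 241 reads in KO-LPS, against 437, 341 and 356 in KO-Saline, and 231, 314 and 328 in WT-LPS, against 438, 358 and 498 in WT-Saline. WT-LPS libraries were below WT-Saline libraries, while KO-LPS replicate 1, at 995 CPM, was among the saline libraries and KO-LPS replicates 2 and 3, at 442 and 517 CPM, were below them all. Kdm6b fell by 0.57 ± 0.18 on the log2 scale (limma adjusted p = 0.0241). The call was lost without WT-Saline replicate 1 or 3, WT-LPS replicate 1, KO-Saline replicate 1 or KO-LPS replicate 2 or 3 (limma adjusted p = 0.0501 to 0.0909). Exons of Kdm6b overlap those of Kdm6bos on the other strand.

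Kdm5a and Kdm1b both remove methyl groups from histone H3, Kdm5a chiefly at promoters and Kdm1b within transcribed genes. Kdm5a (NCBI Gene 214899, chr6:120364124-120444574, plus strand) had 6, 8 and 36 reads in KO-LPS, against 25, 30 and 16 in KO-Saline, and 9, 12 and 16 in WT-LPS, against 19, 29 and 67 in WT-Saline. KO-LPS replicate 3 was among the saline libraries. Its log2 change was -1.16 ± 0.38 (limma adjusted p = 0.0318), and the call was lost without any 1 of 7 libraries, WT-LPS replicates 1 and 2, KO-LPS replicate 2, and replicates 1 and 2 of KO-Saline and 2 and 3 of WT-Saline (limma adjusted p = 0.0505 to 0.116). Kdm1b (LSD2; NCBI Gene 218214, chr13:47043499-47085279, plus strand) had 33, 52 and 88 reads in KO-LPS, against 17, 49 and 52 in KO-Saline, and 51, 55 and 75 in WT-LPS, against 22, 28 and 42 in WT-Saline. The WT groups were apart and the KO-labelled groups overlapped. Its log2 change was 0.79 ± 0.26 (limma adjusted p = 0.0353), and the call was lost without any 1 of 8 libraries, WT-Saline replicates 1 and 2, all 3 WT-LPS replicates, KO-LPS replicates 2 and 3 and KO-Saline replicate 1 (limma adjusted p = 0.0527 to 0.126). Both genes overlap exons on the other strand, of Ccdc77 and of Dek.

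None of the 6 Hdac genes was called in limma in the averaged comparison, against 16.9% of all genes. None had an unadjusted p under 0.05, against 29.4% of all genes. All 6 had a negative averaged log2 change, between -0.77 and -0.03, with a median of -0.17, and Hdac genes were called in no alternative. The shared sign did not hold within a genotype: 4 were negative and 2 positive in WT libraries, and likewise in KO-labelled libraries. Hdac4, a class IIa deacetylase and the one with most reads, had a log2 change of -0.09 ± 0.17 with a 95% interval of -0.43 to 0.26. Hdac5 stood at -0.24 ± 0.25, and Hdac10, with 13 reads pooled over LPS libraries and 31 over saline libraries, at -0.77 ± 0.75 (limma adjusted p = 0.544). Kdm7a and Kdm2b, abundant demethylases, had log2 changes of 0.23 ± 0.15 and 0.12 ± 0.17, neither called. Exons of both overlap exons on the other strand, so their values are uncertain. The gene opposite Kdm7a, 4930599N23Rik, had a log2 change of -0.48 ± 0.15 (limma adjusted p = 0.0302).

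Among remodellers, 2 of 18 genes rose and none fell (11.1% called, against 16.9% of all genes, 9.86% higher and 7.03% lower). Besides Smarca4, Chd6 (NCBI Gene 71389, chr2:160946978-161109075, minus strand), a member of the CHD family of remodellers, had 2, 2 and 10 reads in KO-LPS, against 1, 1 and 0 in KO-Saline, and 11, 15 and 4 in WT-LPS, against 1, 1 and 2 in WT-Saline. Every LPS library was above every saline library, but most were near the floor. Pooled, 44 reads in LPS libraries stood against 6 in saline libraries, so the ratio was 7.32 (95% counting interval 3.11 to 21.0). The averaged log2 change was 2.17 ± 0.71 (limma adjusted p = 0.0331), and the call was lost without WT-Saline replicate 1 or 2, WT-LPS replicate 1 or 2, KO-Saline replicate 3 or KO-LPS replicate 3 (limma adjusted p = 0.0553 to 0.115). With a prior count of 2 reads the log2 change was 1.43. Smarca2 (BRM), which encodes the other ATPase of SWI/SNF, had a log2 change of -0.02 ± 0.21 with a 95% interval of -0.44 to 0.41, and Smarcc2, a scaffold subunit, -0.13 ± 0.26. Chd7 and Chd4, a subunit of the NuRD complex, had log2 changes of -0.17 ± 0.17 and -0.40 ± 0.22 (limma adjusted p = 0.565 and 0.216).

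Among readers, 1 of 8 Brd genes, with Brd3os counted, rose and none fell (12.5% called, against 16.9% of all genes). Brd3 (NCBI Gene 67382, chr2:27445579-27507662, minus strand), a BET protein, had 14, 18 and 20 reads in KO-LPS, against 11, 7 and 7 in KO-Saline, and 36, 28 and 28 in WT-LPS, against 13, 14 and 21 in WT-Saline. Within each genotype LPS and saline libraries did not overlap. Its averaged log2 change was 0.98 ± 0.34 (limma adjusted p = 0.0432), and the call was lost when any 1 library other than KO-Saline replicate 1 or KO-LPS replicate 1 was left out (limma adjusted p = 0.0526 to 0.118), with voom weights (limma adjusted p = 0.0526) and with quantile normalization (limma adjusted p = 0.0598). Brd2, also a BET gene, with 125.7 reads per library, had a log2 change of 0.01 ± 0.17, with a 95% interval of -0.34 to 0.36. Brd7, chosen after its values were seen, had 7, 8 and 16 reads in KO-LPS, against 5, 6 and 4 in KO-Saline, and 12, 18 and 21 in WT-LPS, against 7, 10 and 6 in WT-Saline, with a log2 change of 1.0 ± 0.45 that was not called (limma adjusted p = 0.132).

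The design also asked whether the LPS response depended on the genotype label. In the interaction, which sets the change with LPS in KO-labelled libraries against that in WT libraries, limma called none of the 71 genes and 0.0% of all genes. At an unadjusted p under 0.05 stood 3 of the 71 genes and 5.97% of all, and none of the 71 was called in any alternative. The responses had the same sign in KO-labelled and WT libraries for 44 of the 71 genes (62.0%), against 68.4% of all genes, and Pearson's r across genes was 0.53 for the 71 and 0.52 for all genes, which are not independent replicates. Among genes with a mean of at least 10 reads the same sign was found for 61.7% of the 47 chromatin genes and 73.7% of all, and r was 0.56 for the 47 and 0.74 for all. All 10 called genes had the same sign in both, but they were called on the average of the 2 responses, which favours a shared sign. The 95% interval of the interaction lay within 2-fold either way for 9 of the 71 genes, so for most of them a difference of that size was not excluded. For Kmt5a the interaction was -0.47 ± 0.62, with an interval of -1.73 to 0.80 on the log2 scale, and for Setd2 -0.50 ± 0.40, with an interval of -1.31 to 0.32.

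**Figure D4:**
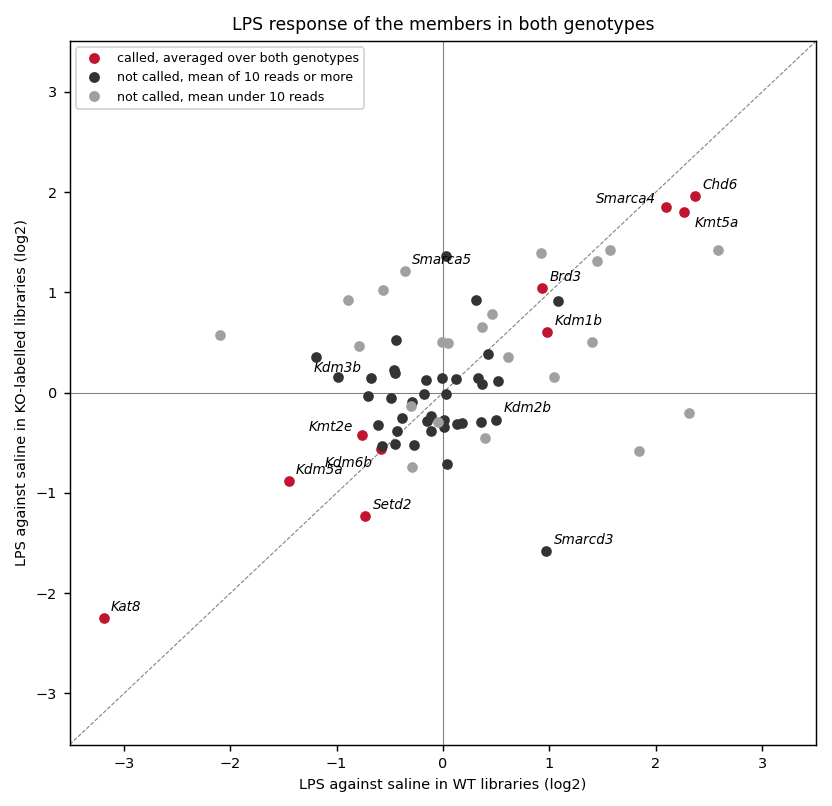
Log2 change with LPS in KO-labelled libraries (vertical) against that in WT libraries (horizontal) for 70 of the 71 genes, with a dashed line of equal response. The 10 called genes, in red, lie at the lower left and upper right, and Smarcd3, Smarca5, Kdm2b and Kdm3b are among those with opposite signs.

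Smarcd3 (BAF60C; NCBI Gene 66993, chr5:24590818-24624411, minus strand), an accessory subunit of SWI/SNF, had the smallest interaction p. Its reads were 4, 12 and 12 in KO-LPS, against 26, 29 and 24 in KO-Saline, and 17, 14 and 22 in WT-LPS, against 8, 13 and 6 in WT-Saline. Every KO-LPS library was below every KO-Saline library, and every WT-LPS library above every WT-Saline library. The interaction was -2.55 ± 0.77 (limma adjusted p = 0.676). The gene overlaps Chpf2 exons on the other strand. Kdm2b, a demethylase that also belongs to a Polycomb complex, had 111, 119 and 112 reads in KO-LPS, against 145, 144 and 126 in KO-Saline, and 133, 176 and 207 in WT-LPS, against 80, 127 and 163 in WT-Saline, with an interaction of -0.77 ± 0.33 (limma adjusted p = 0.817). Kdm3b, a demethylase of histone H3, had 52, 47 and 77 reads in KO-LPS, against 44, 61 and 52 in KO-Saline, and 37, 60 and 59 in WT-LPS, against 76, 88 and 80 in WT-Saline, with an interaction of 0.83 ± 0.40 (limma adjusted p = 0.82).

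Between genotypes, limma called none of the 71 genes. This was so for KO-labelled against WT libraries with saline (0.0107% of all genes called), with LPS (0.0%) and as the average of the treatments (0.0107%), under each alternative run. At an unadjusted p under 0.05 stood 5, 3 and 2 of the 71 genes in these 3 comparisons, against 6.86%, 5.02% and 5.65% of all genes. The median averaged log2 difference was -0.12 over the 71 genes and -0.01 over all genes, with 45 of the 71 negative. No gene of the 71 was separated between all 6 KO-labelled and all 6 WT libraries, against 0.224% of all genes, 0.096% higher and 0.128% lower. With saline 13 were, 5 higher and 8 lower, 18.3% of the 71 against 13.0% of all genes, with 6.77% higher and 6.19% lower. With LPS 9 were, all of them lower, 12.7% of the 71 against 10.1% of all genes, with 4.74% higher and 5.33% lower. Among genes with a mean of at least 10 reads the shares were 25.5% of the chromatin genes and 15.6% of all with saline, and 17.0% and 10.4% with LPS. The 95% interval of the averaged difference lay within 2-fold either way for 38 of the 71 genes, all of them among the 47 with a mean of at least 10 reads.

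Several abundant genes had narrow intervals around 0 for KO-labelled against WT libraries. Kdm6b averaged 0.00 ± 0.18 on the log2 scale, with a 95% interval of -0.36 to 0.37. Setd2 stood at -0.06 ± 0.20, Chd7 at -0.01 ± 0.17, Kdm2b at 0.02 ± 0.17 and Kmt2e at -0.12 ± 0.15. For Kmt5a the difference was -0.08 ± 0.44 in saline and -0.55 ± 0.44 in LPS, where the 3 KO-LPS libraries, at 50.7, 79.0 and 94.3 CPM, were below the 3 WT-LPS libraries, at 111, 108 and 100 CPM (limma adjusted p = 0.966). Smarca4 stood at -0.22 ± 0.62 in saline and -0.47 ± 0.62 in LPS.

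The 3 genes of smallest p in the averaged genotype comparison, Brd3os, Hdac7 and Hdac3, had under 10 reads per library. Brd3os had 6, 4 and 24 reads in KO-LPS and 1, 12 and 18 in KO-Saline, against 0, 5 and 1 in WT-LPS and 0, 4 and 0 in WT-Saline. Its groups overlapped. The averaged log2 difference was 2.81 ± 0.82 (limma adjusted p = 0.641), and pooled reads were 65 in KO-labelled and 10 in WT libraries, so the ratio was 7.43 (95% counting interval 3.79 to 16.2). Hdac7 had 27 pooled reads in KO-labelled and 76 in WT libraries, with an averaged difference of -1.15 ± 0.53 (limma adjusted p = 0.856). Hdac3, a core deacetylase of nuclear corepressor complexes, had 10 and 29 pooled reads and a difference of -1.55 ± 0.76 (limma adjusted p = 0.88).

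In saline, Smarcd3 was 63.2 ± 4.94 CPM in KO-labelled and 19.3 ± 8.15 CPM in WT libraries (SD, n = 3 each, log2 difference 1.74 ± 0.54, limma adjusted p = 0.471). Its groups did not overlap. Hdac4 was 520 ± 60.2 CPM in KO-Saline and 362 ± 87.6 CPM in WT-Saline (log2 difference 0.54 ± 0.24, limma adjusted p = 0.666), also without overlap. In LPS, Kmt2b, a methyltransferase of the MLL family, was 75.4 ± 5.19 CPM in KO-LPS and 124 ± 22.6 CPM in WT-LPS, and Setd1b was 175 ± 38.1 CPM in KO-LPS and 260 ± 38.8 CPM in WT-LPS (log2 differences -0.70 ± 0.32 and -0.58 ± 0.27, limma adjusted p = 0.949 for both). For both genes the KO-LPS libraries were below the WT-LPS libraries.

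**Figure D5:**
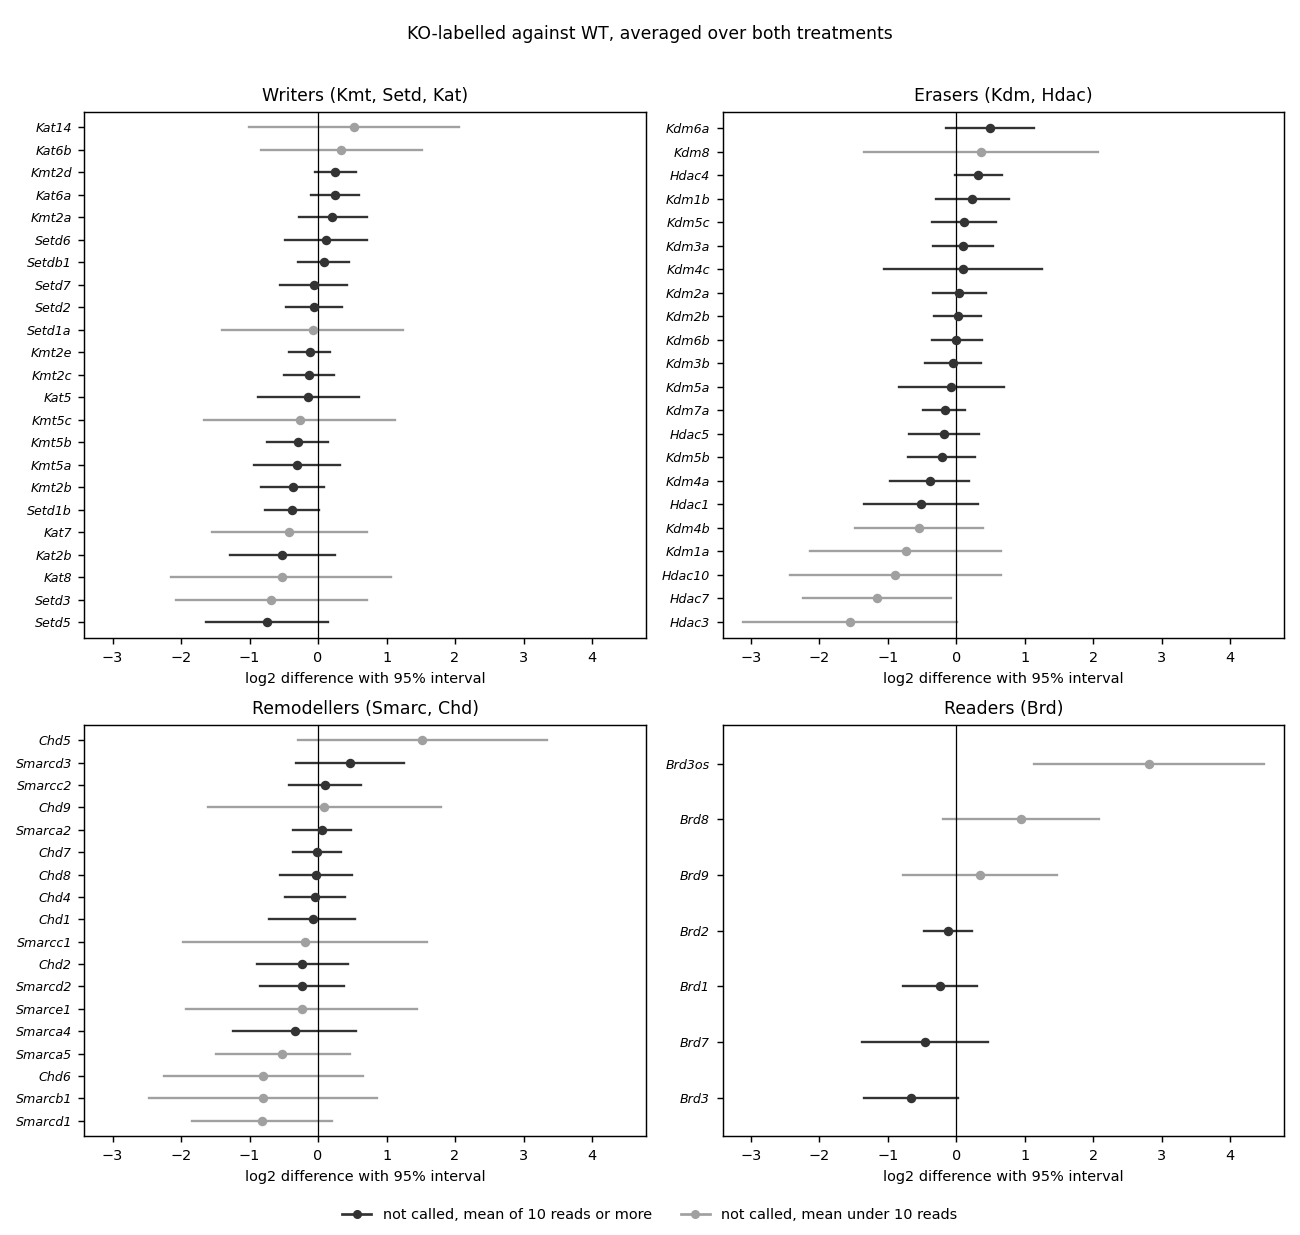
Averaged log2 difference of KO-labelled against WT libraries for 70 of the 71 genes by role, with 95% intervals, black for a mean of at least 10 reads and grey for fewer. No gene was called, and the genes farthest from 0, Brd3os at 2.81 and Hdac3 at -1.55, have under 10 reads per library.

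Genes of the same pathways outside the naming rule were described from lists, with no test of a list. In the averaged LPS comparison 1 of 20 Polycomb genes, 1 of 14 other methyltransferases, 1 of 11 other acetyltransferases, 3 of 13 other erasers, 2 of 12 COMPASS subunits, 4 of 26 HDAC corepressor subunits, 1 of 14 SWI/SNF subunits outside the Smarc names, 2 of 19 other remodellers, 3 of 34 acetyltransferase complex subunits, 1 of 7 DNA methylation genes and none of 5 HMG genes were called, against 16.9% of all genes. The lists' median log2 changes ran from -0.28, for the other erasers and the HMG genes, to 0.76 for COMPASS subunits and 0.81 for DNA methylation genes, against 0.09 for all genes. Between genotypes limma called none of them, averaged over treatments.

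Kansl3, a scaffold of the NSL complex that contains Kat8, fell: it had 160, 27 and 63 reads in KO-LPS, against 160, 207 and 197 in KO-Saline, and 49, 57 and 45 in WT-LPS, against 176, 246 and 318 in WT-Saline (log2 change -1.88 ± 0.27, limma adjusted p = 9.31e-06). KO-LPS replicate 1 was the exception, in the saline range. In the same list Brpf1 rose by 1.19 ± 0.25 and Kansl1, of the same complex as Kansl3, by 0.80 ± 0.24 on the log2 scale. Clock, a circadian transcription factor for which acetyltransferase activity was reported, rose and had 80, 141 and 208 reads in KO-LPS, against 46, 65 and 36 in KO-Saline, and 133, 177 and 214 in WT-LPS, against 68, 55 and 53 in WT-Saline (log2 change 1.51 ± 0.20, limma adjusted p = 5.26e-06). Its LPS libraries were all above its saline libraries.

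Among erasers outside the naming rule the sirtuin Sirt3 fell by 1.20 ± 0.25 on the log2 scale (limma adjusted p = 0.000834). Riox2 and Sirt2 rose by 1.08 ± 0.21 and 0.77 ± 0.27 (limma adjusted p = 0.000364 and 0.0473). Sirt2 was called neither in WT nor in KO-labelled libraries alone (limma adjusted p = 0.126 and 0.425). No alternative runs are given for the calls in this paragraph. Of the corepressor subunits Mbd2 and Sin3b rose by 1.14 ± 0.25 and 0.89 ± 0.28, and Ncor1, outside the 3 of largest change, fell by 0.68 ± 0.16. Wdr82 and Psip1, which target COMPASS and MLL complexes, rose by 1.01 ± 0.34 and 0.72 ± 0.18 (limma adjusted p = 0.0412 and 0.0042). Wdr82 was not called in KO-labelled libraries alone (limma adjusted p = 0.625), nor Psip1 in WT libraries alone (limma adjusted p = 0.199). Hltf and Baz1a rose by 0.95 ± 0.33 and 0.68 ± 0.22 among other remodellers, and Tet2, which oxidises methylated DNA, by 0.81 ± 0.23. Arid1b, a DNA-binding SWI/SNF subunit, fell by 0.69 ± 0.22, and the methyltransferase Suv39h2 by 0.79 ± 0.21, each on the log2 scale. Pcgf1, a Polycomb subunit, was called with 6.35 ± 4.42 CPM over 6 LPS libraries and 0 reads in all 6 saline libraries, and no fold is given because its levels were near the floor. Exons of Brpf1, Sirt3, Riox2, Sirt2, Ncor1, Psip1, Tet2 and Suv39h2 overlap exons on the other strand, so their values are uncertain. Of the HMG genes Hmgn2 had a log2 change of -0.28 ± 0.26.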

How the data were processed

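Per the labels' protocols, neutrophil RNA came from a Qiagen miRNeasy micro kit, and libraries from Tecan's Universal Plus Total RNA kit, which marks the strand. The authors deposited 1 table of log2 values for 9374 genes. Whole reads came back from them within 0.0001 for 100.0% of values once 0.5 reads were taken off, so they are log2 CPM. The library size behind them was 0.938 to 1.044 times the reads in the table, so they are not scaled to depth alone. A run with TMM scaling, a normalization between libraries, called as many genes as the main fit in each LPS comparison. It thus adds little as an alternative run. The build was mm10, per the submitters' processing notes, with the aligner, counter and strand setting not given in the sources used here. Every gene in the table had at least 8 reads.

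The log2 values as deposited were tested with limma 3.58.1 in R 4.3.3: means of 4 groups, 12 libraries, a mean-variance trend and two-sided tests, adjusted over 9374 genes in each of 7 comparisons. No source says that libraries came from separate mice, so p-values rest on the spread among libraries, and that spread may be technical. Counting intervals are exact binomial, and intervals and floors cover counting error only. Count-based tests were not run because the deposited unit is log2, although whole reads were recovered and were used for a run with voom weights. The fit was tested on simulated data with large changes in genes with a mean of at least 10 reads and the same spread setting for all genes. That run does not cover smaller changes, genes with fewer reads or a deviating library. Same-numbered libraries were checked for pairing and did not deviate together, a check that cannot exclude a pairing at these read levels. Symbols and promoters came from RefSeq (GRCm38.p6), positions (1-based) and exon overlaps from GENCODE M21.

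The 71 genes and the other lists were chosen with earlier results of these data known. Genes were named by rule: every called gene, the 2 of most reads in each family, the gene of smallest p in a family without a call, the 3 of smallest p in each comparison without a call, and up to 3 called genes of largest change, or the most abundant gene, in each other list. Some genes that the rule names are not reported here.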

Additional observations from a re-analysis of the deposited data

Results flagged for a closer look

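In 3 of the 71 genes (4.23%), against 34 of 9374 genes (0.363%), all KO-LPS libraries lay on one side of KO-Saline and all WT-LPS libraries on the other side of WT-Saline. These shares were not matched for read level, and the median was 27.83 reads for the 71 genes and 11.33 for all genes. They rest on 3 genes and were not tested. The difference between the 2 responses was tested as the interaction in limma, and none passed adjustment. It was -2.55 ± 0.77 on the log2 scale for Smarcd3 (limma adjusted p = 0.676) and -0.77 ± 0.33 for Kdm2b (limma adjusted p = 0.817). It was 1.57 ± 0.95 for Smarca5, the ATPase of ISWI remodellers (limma adjusted p = 0.871), which had 6, 11 and 11 reads in KO-LPS, against 4, 3 and 4 in KO-Saline, and 7, 9 and 10 reads in WT-LPS, against 8, 14 and 12 in WT-Saline.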

How the results depend on the processing

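Of 2227 values recomputed for named genes and lists, called or not, 70 lost their call and 0 reversed. All 70 losses fell on refits of the 15 calls on the 71 genes, so 2227 is not the base for their share. Calls were also gained, above all without KO-LPS replicate 1, and Kat8 was gained in WT under several settings. Of the 15 calls on the 71 genes, 4 held in every alternative run: Kmt5a in WT, and Kmt5a, Smarca4 and Setd2 averaged over genotypes. Without the mean-variance trend limma called 1 of the 71 genes in WT, 0 in KO-labelled libraries and 6 averaged. With only the groups compared in the fit it called 7 in WT and 0 in KO-labelled libraries. With 1 library left out at a time the counts ran from 1 to 7 in WT, 0 to 7 in KO-labelled libraries and 4 to 15 averaged, beside 7.83% to 15.2%, 0.341% to 11.5% and 12.4% to 23.8% of all genes, the highest each time without KO-LPS replicate 1, and the cause was not tested. With replicate number as a block the averaged count was 9, without Brd3 (limma adjusted p = 0.052), and those in WT and in KO-labelled libraries were 3 and 2. No pairing by number was seen: correlations of same-numbered libraries ran from -0.066 to 0.04, and 6 of 18 were the best for their library. With a median of 11.33 reads per gene and library, counting error can hide a pairing, so this check does not exclude it. No genotype difference or interaction among the 71 genes was called in any alternative run. In the 250 bases before the start alone, the share of the 53 promoters with the ETS letters was 0.0%. The planned edgeR and DESeq2 alternatives were not run. At under 10 reads per library, 24 of the 71 genes had no averaged interval within 2-fold.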
